A study of Arabidopsis thaliana with 24 samples.

Results

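Roots of the induced amiR-TOR line on the auxin transport inhibitor NPA were compared with roots of the wild type Col-0 given the same inhibitor and the same inducer. The members are the 3 libraries titled UB10pro_amiR-TOR_NPA_Es and the 3 titled Col-0_NPA_Es, 6 of the 24 RNA-sequencing libraries of the series. The line carries an artificial microRNA against TOR whose expression is switched on by estradiol. Both genotypes were seedlings of Arabidopsis thaliana aged 7 d that spent 24 h on 10 µM NPA and then 24 h on 10 µM NPA with 10 µM estradiol, and they stayed on those plates for the last 6 h before harvest. Each library pooled about 200 pieces from the lower part of seedling roots. The promoter named in the line's title is UB10pro, and how many independent lines it stands for is not given in the sources used here. The other groups used below are the same 2 genotypes on NPA with the solvent DMSO in place of estradiol, and on 10 µM IAA, a natural auxin, with estradiol. The sample records give the IAA groups 10 µM NPA too, with 24 h of NPA beforehand and harvest at 6 h. Per the series title and design text, the study examined gene expression during synchronous induction of lateral roots with and without knock-down of TOR.

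TOR is a large protein kinase conserved from yeast to animals and plants. It acts with the partner proteins RAPTOR and LST8 and promotes ribosome production, translation and cell proliferation when nutrients, sugars and auxin are plentiful, while it restrains autophagy. The kinase SnRK1, active under low energy, works against it. In roots TOR activity sustains the meristem and root hair growth, and an artificial microRNA lowers the TOR transcript by guiding its cleavage.

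Gene counts ran from 20478047 to 30699876 in the induced amiR-TOR libraries and from 19151752 to 40494513 in the Col-0 libraries. Unmapped reads made up 4.68% to 8.15% of reads in the induced amiR-TOR libraries and 2.63% to 3.58% in Col-0. The labels do not say whether replicates came from separate cultures, so p-values measure the spread between these samples, which may be technical. Replicate 2 of induced amiR-TOR stood apart. Its correlation with replicates 1 and 3 on the scale of log2(CPM + 1) was 0.985 and 0.986 across genes, against 0.996 between those 2. Among Col-0 libraries, replicate 3 had far higher levels of several defence genes than replicates 1 and 2.

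The microRNA precursor MIR319A had the largest called interaction of genotype with estradiol and is a common backbone for artificial microRNAs in Arabidopsis, so its reference sequence is shown first. The backbone used in this line is not given in the sources used here. The locus AT4G23713 covers chr4:12352956-12353131 on the plus strand of TAIR10.1, the RefSeq assembly. In the primary transcript below, capitals mark the mature microRNA319a at chr4:12353109-12353129. In the mature sequence, capitals mark the seed, bases 2 to 8.
MIR319A primary transcript: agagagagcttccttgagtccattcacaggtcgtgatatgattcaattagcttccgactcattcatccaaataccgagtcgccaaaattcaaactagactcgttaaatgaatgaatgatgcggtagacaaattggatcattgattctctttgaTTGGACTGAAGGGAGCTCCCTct
Mature microRNA319a: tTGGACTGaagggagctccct

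Natural microRNA319 targets mRNAs of TCP and MYB transcription factors. The best ungapped match to its complement within their coding sequences is shown for the 2 listed targets whose level differed between genotypes, with capitals at bases that differ from that complement.
TCP24: TAggGgGAcccttcagtccaa
MYB33: CTggagctcccttcaTtccaa
The TCP24 site lies at chr1:10628989-10629009 on the minus strand with 5 such bases, and the MYB33 site at chr5:1839578-1839598 on the plus strand with 3. Both lie in coding exons.

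TOR itself was lower in every induced library. TOR (AT1G50030) had 33.3, 21.9 and 25.8 CPM in induced amiR-TOR roots, against 67.0, 77.1 and 67.7 CPM in Col-0 roots, where CPM are counts scaled to a common library size after TMM normalization. The genotypes did not overlap, as was so for 50.3% of all tested genes, and replicate 2 had the least TOR. The means were 27.0 ± 5.81 CPM in induced amiR-TOR roots and 70.6 ± 5.66 CPM in Col-0 roots (SD, n = 3 each), which is 38.3% of the Col-0 mean. The log2 fold change was -1.39 ± 0.15 (SE; edgeR quasi-likelihood test, adjusted p = 7.15e-07). Without estradiol the genotypes had 56.9 ± 6.33 CPM in amiR-TOR and 64.7 ± 13.4 CPM in Col-0 (adjusted p = 0.404). The interaction of genotype with estradiol, the induced log2 difference minus the uninduced one, was -1.21 ± 0.21 (adjusted p = 0.00349).

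**Figure D1:**
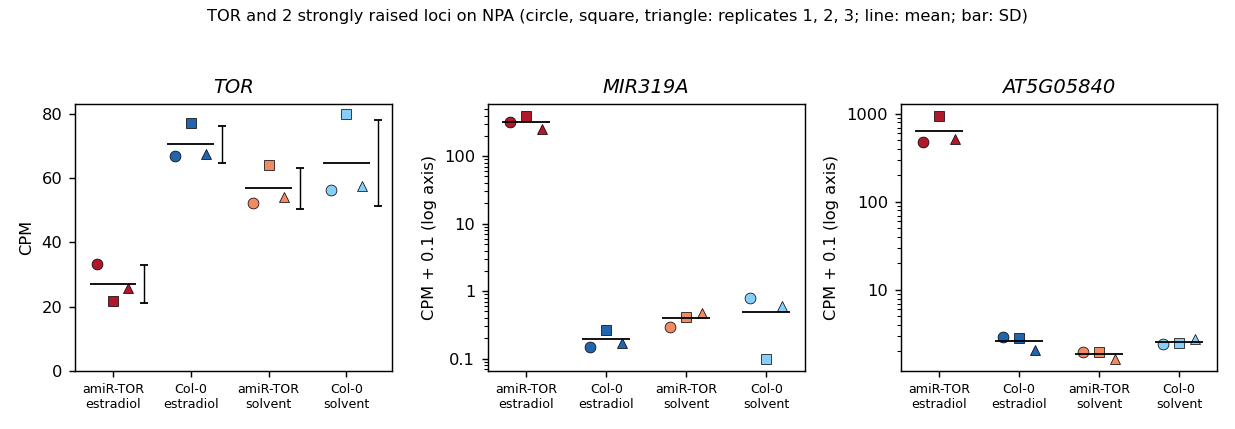
Level of TOR (CPM, axis from 0) and of MIR319A and AT5G05840 (CPM + 0.1, log axis) in the 3 libraries of each group on NPA, with the group mean as a line and, for TOR, the SD as a bar. The 3 induced amiR-TOR libraries hold 21.9 to 33.3 CPM of TOR against 67.0 to 77.1 CPM in Col-0 with estradiol, and they alone hold high levels of the other 2 loci.

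On NPA, MIR319A counts were high only with induction. The locus had 317, 389.7 and 256 CPM in induced amiR-TOR roots, against 0.0505, 0.161 and 0.0713 CPM in Col-0 roots. Every induced library lay above 250 CPM and every Col-0 library below 0.2 CPM. Uninduced amiR-TOR roots had 0.296 ± 0.0944 CPM and uninduced Col-0 roots 0.394 ± 0.355 CPM, and the interaction with estradiol was 11.93 ± 1.25 (adjusted p = 2.5e-05), with 11.11 and 12.64 without replicate 1 and without replicate 2 of uninduced Col-0. Counts at this locus cannot tell transcripts of the native gene from those of an introduced copy. MIR319B, the related precursor on chromosome 5, had 0.776, 1.07 and 0.667 CPM in induced amiR-TOR roots, against 1.61, 1.53 and 1.88 CPM in Col-0 roots, a log2 difference of -0.99 ± 0.32 (adjusted p = 0.0189). That call was lost without replicate 1 or 3 of amiR-TOR or replicate 3 of Col-0, with adjusted p = 0.0536, 0.0825 and 0.0541.

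The microRNA319 targets moved in both directions. TCP24, a regulator of organ growth, had 1.60, 3.47 and 1.96 CPM in induced amiR-TOR roots, against 0.504, 0.726 and 0.760 CPM in Col-0 roots (log2 1.8 ± 0.47, adjusted p = 0.00558). MYB33, a regulator of gibberellin responses and anther development, had 16.6, 15.1 and 16.4 CPM in induced amiR-TOR roots, against 29.0, 24.8 and 26.4 CPM in Col-0 roots (log2 -0.74 ± 0.10, adjusted p = 1.06e-05). Neither interaction with estradiol passed the test, with adjusted p = 0.834 for TCP24 and 0.0572 for MYB33. Of the 10 tested loci on the list of the backbone, its targets and AT5G05840, 3 rose and 2 fell. Of all 21290 tested genes 32.8% were called in either direction, 17.56% higher and 15.3% lower. On the list, 1 fell without replicate 1 or 3 of amiR-TOR or replicate 3 of Col-0. AT5G05840 is not a microRNA319 target and was listed because an earlier reading of these data found it raised with MIR319A. Both are among the 3 rises, so this count is no test of the targets.

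AT5G05840 and a handful of other loci rose from near nothing. AT5G05840, whose product TAIR10.1 names a putative replication factor C subunit, had 479.7, 940.4 and 521 CPM in induced amiR-TOR roots, against 2.83, 2.78 and 1.97 CPM in Col-0 roots. Its log2 fold change was 8.03 ± 0.27 and its interaction with estradiol 8.50 ± 0.38 (adjusted p = 4.27e-12). The genes on either side did not follow it: AT5G05830 changed by -0.17 ± 0.16 (adjusted p = 0.433) and PIRL1 by -0.28 ± 0.19 (adjusted p = 0.274).

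Most of these loci were highest in replicate 2. AT1G56710, a pectin lyase-like protein, had 108, 472 and 98.2 CPM in induced amiR-TOR roots and 2 counts in all in Col-0, a ratio of 10870 (95% exact interval 3009 to 89780, counting error only) that was 4440 (1228 to 36670) without replicate 2 of amiR-TOR. AT1G71470, of no stated function, had 7.91, 51.1 and 7.18 CPM, SBT5.4, a subtilase, had 2.81, 18.3 and 4.28 CPM and WUS, the homeodomain factor that maintains shoot stem cells, had 0.679, 20.7 and 1.96 CPM in induced roots. All 3 had no count in any Col-0 library. Against a floor of 3 counts over the Col-0 group, AT1G71470 was at least 723-fold, SBT5.4 at least 275-fold and WUS at least 264-fold higher. Without replicate 2 of amiR-TOR these bounds were 217-fold, 104.7-fold and 40.1-fold in that order, and without replicate 3 of Col-0, which lowers the depth, 372-fold, 141-fold and 136-fold. Their calls held without replicate 2 of amiR-TOR, with adjusted p of 6.49e-06 for AT1G71470, 1.41e-05 for SBT5.4 and 0.00643 for WUS. In a fit of the 6 libraries alone the calls of AT1G71470 (adjusted p = 0.0511) and WUS (adjusted p = 0.119) were lost. WUS rested most on that library, with 20.7 CPM there against 0.679 and 1.96 CPM in replicates 1 and 3.

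Besides MIR319A and AT5G05840, 3 other loci were among the 5 largest called interactions with estradiol. AT1G56710, AT1G71470, SBT5.4 and WUS were not among these 5. AT5G40620, of no stated function, had 7.52, 49.4 and 9.07 CPM in induced amiR-TOR roots, against 0.151, 0.121 and 0.142 CPM in Col-0 roots. AT1G09421, a noncoding RNA, had 6.99, 13.7 and 7.26 CPM in induced amiR-TOR roots, against 0.0505, 0.121 and 0.142 CPM in Col-0 roots, and the protein kinase gene AT5G38240 had 2.77, 6.96 and 3.14 CPM in induced amiR-TOR roots, against 0.101, 0.161 and 0.0238 CPM in Col-0 roots. For AT5G40620 lack of overlap was a condition of being among the largest rises. All 3 showed no overlap between genotypes, as did 50.3% of all tested genes. Their interactions were 7.55 ± 1.82 (adjusted p = 0.0319), 6.57 ± 0.87 (adjusted p = 0.000212) and 5.44 ± 1.05 (adjusted p = 0.00654) in that order. The fold change of AT5G40620 was 7.27 on the log2 scale with all libraries and 5.85 (adjusted p = 5.86e-08) without replicate 2 of amiR-TOR. The interaction of AT5G40620 missed the threshold when any 1 of 9 of the 12 libraries was left out (adjusted p up to 0.148), without the filter on low counts (0.0536) and in a fit of the 4 groups alone (0.126), and its value was 6.14 without replicate 2 of induced amiR-TOR. That of AT5G38240 was 4.47 and missed it without replicate 3 of uninduced Col-0 (adjusted p = 0.116). It was 6.12 and 4.70 without replicates 2 and 3 of Col-0 with estradiol. That of AT1G09421 was 5.72 without replicate 1 of uninduced Col-0, and it missed the threshold with counts taken without regard to strand (5.19, adjusted p = 1).

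Across all genes the difference was broad. Of 21290 genes, 6986 (32.8%) were called, 3739 higher and 3247 lower in induced amiR-TOR, and 1928 (9.06%) changed by at least 1 on the log2 scale. The median of all genes was 0.05. The side with more calls depended on which libraries were in the fit. With the 6 libraries alone, 3555 were higher and 3770 lower, and without replicate 3 of Col-0 2750 were higher and 3218 lower. Scaling all 24 libraries by RLE size factors gave 3837 higher and 3204 lower.

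Much of the difference was already there without the inducer. Uninduced amiR-TOR differed from uninduced Col-0 at 4714 genes (22.1%), 2283 (10.7%) higher and 2431 (11.4%) lower, in libraries that the induced comparison does not use. That side turned too, with 2447 higher and 1865 lower in a fit of those 6 libraries alone, and with more genes higher than lower when replicate 3 of Col-0 or any 1 amiR-TOR library was left out, or low counts were not filtered. The 2 comparisons shared 2880 called genes, which is 41.2% of the induced calls and 61.1% of the uninduced ones, and 2832 of them had the same sign. The interaction of genotype with estradiol was called at 558 genes (2.62%), 265 (1.24%) higher and 293 (1.38%) lower. That split moved to 169 higher and 519 lower in a fit of the 4 groups alone. Of the 4106 genes called with estradiol and not without it, 351 had a called interaction, so for the others the 2 differences were not shown to differ. Replicate 1 of uninduced Col-0 was among 5 libraries of the series with over 20% unmapped reads, none of them in the induced comparison.

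**Figure D2:**
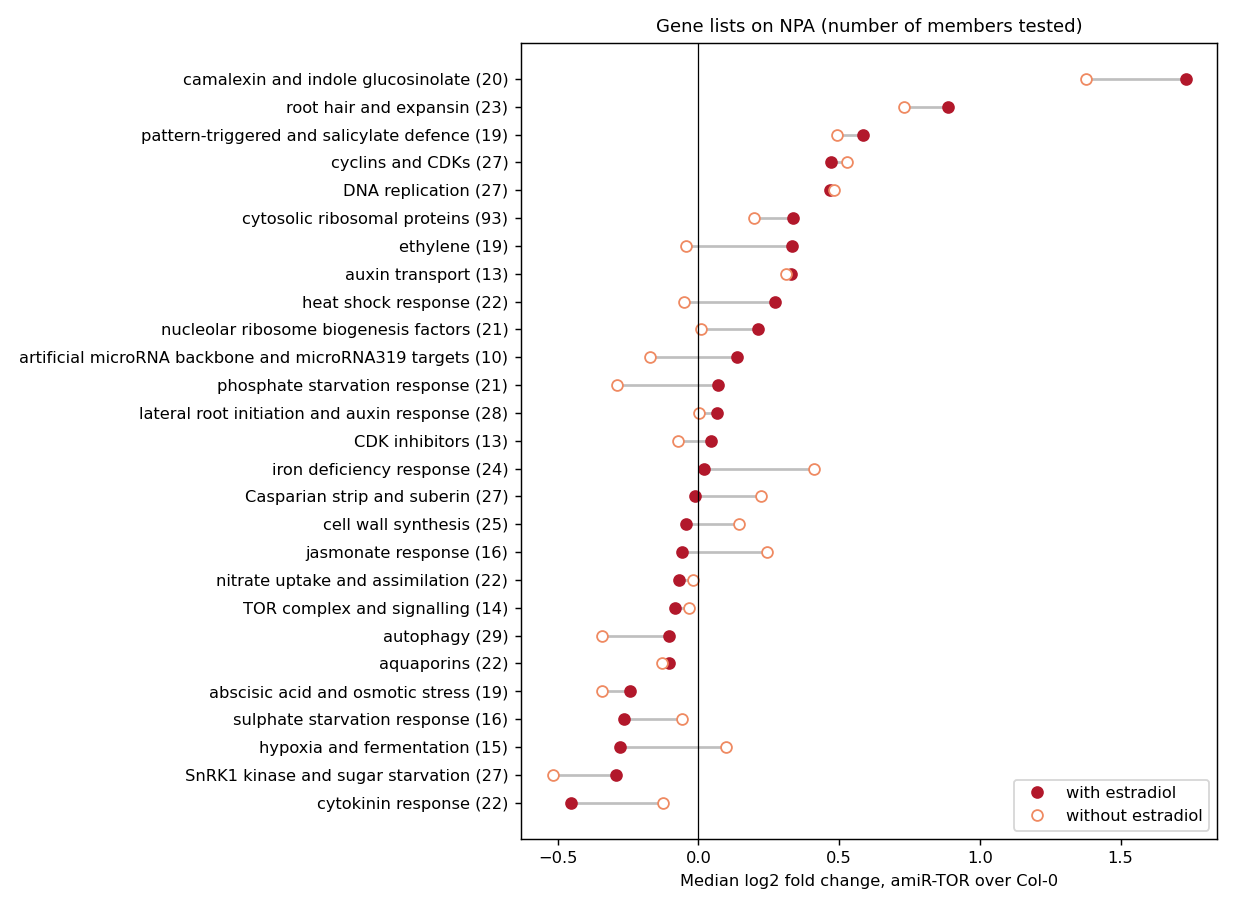
Median log2 fold change of amiR-TOR over Col-0 on NPA for each of 27 gene lists, with estradiol (filled) and without it (open). The number of tested members stands in brackets. Camalexin and indole glucosinolate genes lie farthest to the right in both comparisons, at 1.73 with estradiol and 1.38 without it.

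Partners and substrates of TOR were called about as often as other genes. RAPTOR1 and LST8-1, subunits of the TOR complex, had log2 differences of -0.19 ± 0.15 (adjusted p = 0.348) and 0.11 ± 0.10 (adjusted p = 0.4). S6K1, the kinase TOR phosphorylates, had 77.8, 70.4 and 75.2 CPM in induced amiR-TOR and 72.2, 64.0 and 83.5 CPM in Col-0 (adjusted p = 0.884). Of 14 tested members, 2 rose and 2 fell, TOR among the falls, which is 28.6% called against 32.8% of all genes. RPS6A, the ribosomal protein that S6K1 phosphorylates, rose (log2 0.62 ± 0.13, adjusted p = 0.000873), as did EBP1, a growth regulator linked to ribosome assembly (log2 0.50 ± 0.11, adjusted p = 0.00144). MRF1, a translation factor regulated by TOR and S6 kinases, fell (log2 -0.59 ± 0.14, adjusted p = 0.00286), and it was as low without estradiol (log2 -0.60 ± 0.14, adjusted p = 0.00462).

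Many genes of the cytosolic ribosomal protein list were higher in the knock-down roots. This list was drawn by a match to product text, so it misses some members, RPS6A among them, and may hold loci of other kinds. Of 93 tested, 84 had a positive log2 value, 32 rose and 1 fell, with a median of 0.34 against 0.05 over all genes. Among all genes 17.56% were called higher. The 32 rises ran from 0.29 to 1.40 on the log2 scale. AT5G61170, a S19e family protein, had 364, 447 and 425 CPM in induced amiR-TOR roots, against 287, 245 and 285 CPM in Col-0 roots (log2 0.60 ± 0.14, adjusted p = 0.00172). AT1G74270, of the L35Ae family, had 237, 318 and 283 CPM in induced amiR-TOR roots, against 164, 129 and 135 CPM in Col-0 roots (log2 0.97 ± 0.18, adjusted p = 0.000373). No library of one genotype reached into the range of the other for either gene. Ribosomal protein genes have near-identical copies, so how reads were split between them is uncertain. The count of rises was 11 without replicate 2 of amiR-TOR or replicate 2 of Col-0, 15 without replicate 3 of Col-0 and 17 without replicate 3 of amiR-TOR, and the median without replicate 2 of amiR-TOR was 0.27. Without estradiol, 4 rose and 2 fell, where 10.7% and 11.4% of all genes did, with a median of 0.20. One member, AT5G15260, a L34e superfamily gene named after its values were seen, had a called interaction with estradiol (log2 0.56 ± 0.15, adjusted p = 0.0481).

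Nucleolar factors that process ribosomal RNA were called higher about as often as other genes. Of 21 tested, 4 (19.1%, against 17.56% of all genes) rose and none fell, with a median of 0.21. FIB2, a fibrillarin that methylates ribosomal RNA, had 208, 250.4 and 229 CPM in induced amiR-TOR roots, against 149, 132 and 185 CPM in Col-0 roots (log2 0.56 ± 0.15, adjusted p = 0.00709). NSN1, a nucleolar GTPase, rose by 0.42 ± 0.13 on the log2 scale (adjusted p = 0.0122), while NUC-L1, the major nucleolin, had 0.34 ± 0.13 (adjusted p = 0.0507). FIB2 and NSN1 both missed the threshold without replicate 2 of Col-0 (adjusted p = 0.0505 and 0.0742). Of the list, 0 rose without replicate 2 of Col-0, 1 without replicate 1 of Col-0 or replicate 2 of amiR-TOR, 2 without replicate 3 of amiR-TOR and 8 without replicate 3 of Col-0, and 1 fell without replicate 1 or 2 of Col-0 or replicate 2 of amiR-TOR.

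Many cell cycle genes were higher. Of 27 cyclins and cyclin-dependent kinases, 16 rose and none fell (median 0.47), and of 27 DNA replication genes 17 rose and none fell (median 0.47), where 17.56% of all genes were called higher. CYCB1;2, a mitotic cyclin, had 20.9, 25.3 and 23.8 CPM in induced amiR-TOR roots, against 14.2, 14.2 and 13.9 CPM in Col-0 roots (log2 0.73 ± 0.12, adjusted p = 0.000109). CDKB2;1, a kinase made at mitosis, had 28.4, 34.6 and 31.5 CPM in induced amiR-TOR roots, against 19.6, 19.3 and 19.9 CPM in Col-0 roots (log2 0.68 ± 0.12, adjusted p = 0.000188). Both showed clear gaps between genotypes.

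Replication genes gave the same picture. MCM3, a subunit of the replicative helicase, had 22.5, 21.5 and 21.2 CPM in induced amiR-TOR roots, against 11.9, 11.9 and 16.7 CPM in Col-0 roots (log2 0.68 ± 0.13, adjusted p = 0.000348). PCNA1, the sliding clamp of DNA polymerase, had 31.1, 35.9 and 33.3 CPM in induced amiR-TOR roots, against 20.5, 18.6 and 25.6 CPM in Col-0 roots (log2 0.63 ± 0.15, adjusted p = 0.00243). CYCB1;1, the usual reporter of dividing cells, had 8.35, 14.9 and 12.0 CPM in induced amiR-TOR and 7.37, 7.63 and 8.31 CPM in Col-0 (adjusted p = 0.0548). Rises numbered 11 to 16 among cyclins and kinases and 12 to 15 among replication genes when any 1 of the 6 libraries was left out, with the low ends without replicate 1 and replicate 2 of Col-0. These differences were present without the inducer as well, with 12 cyclins and kinases and 15 replication genes higher, against 10.7% of all genes. No interaction with estradiol was called in either list, against 2.62% of all genes.

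Inhibitors of the cell cycle kinases were mixed. Of 13 tested, 2 rose and 3 fell (38.5% called, against 32.8% of all genes), and the falls numbered 1 without replicate 1 or 2 of Col-0 or replicate 1 of amiR-TOR, and the rises 1 without replicate 2 or 3 of either genotype. KRP1, an inhibitor of cyclin-dependent kinases, had 4.71, 5.73 and 4.83 CPM in induced amiR-TOR roots, against 11.2, 10.4 and 9.98 CPM in Col-0 roots (log2 -1.04 ± 0.28, adjusted p = 0.00604). KRP3, of the same family, had 5.39, 5.38 and 5.18 CPM in induced amiR-TOR roots, against 3.38, 2.70 and 3.80 CPM in Col-0 roots (log2 0.68 ± 0.17, adjusted p = 0.00468). The 2 relatives thus lay on opposite sides, each with no overlap between genotypes.

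More genes of low-energy signalling fell than rose. Of 27 members of the SnRK1 and sugar starvation list, 1 rose and 6 fell, where 15.3% of all genes were called lower, with a median of -0.29. KIN10, the catalytic subunit of SnRK1, had 56.0, 59.2 and 55.7 CPM in induced amiR-TOR and 54.4, 56.6 and 55.2 CPM in Col-0 (adjusted p = 0.683). BT2, a scaffold protein repressed by sugars, had 94.2, 53.1 and 66.8 CPM in induced amiR-TOR roots, against 182, 227 and 174 CPM in Col-0 roots (log2 -1.45 ± 0.25, adjusted p = 0.000245). TPS10, a trehalose phosphate synthase-like protein, had 105, 73.9 and 86.2 CPM in induced amiR-TOR roots, against 164, 197 and 153 CPM in Col-0 roots (log2 -0.96 ± 0.18, adjusted p = 0.000363). BT2 and TPS10 were low in all 3 induced libraries, and they were also low without estradiol (BT2 log2 -1.28 ± 0.25, adjusted p = 0.0016, TPS10 log2 -0.72 ± 0.18, adjusted p = 0.00683).

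ASN1, the asparagine synthetase that darkness and starvation induce, was the 1 member called higher. It had 45.6, 20.8 and 10.6 CPM in induced amiR-TOR roots, against 7.32, 9.52 and 14.3 CPM in Col-0 roots, with overlapping groups (log2 1.27 ± 0.48, adjusted p = 0.0495). The call was lost without any 1 of 5 libraries, and the log2 value was 0.58 (adjusted p = 0.353) without replicate 1 of amiR-TOR. It was also lost with a replicate block (adjusted p = 0.0851), in a fit of the 6 libraries alone (0.152), without the filter on low counts (0.0718), with a term for libraries rich in unmapped reads (0.0528) and with counts taken without regard to strand (0.0526). The list's falls numbered 3 without replicate 1 or 2 of Col-0 or replicate 3 of amiR-TOR and 9 without replicate 1 of amiR-TOR.

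Autophagy is a process that TOR restrains. Of 29 autophagy genes tested, 1 rose and 5 fell (20.7% called, against 32.8% of all genes), with a median of -0.10. ATG8B, a ubiquitin-like protein of the autophagosome membrane, had 45.6, 42.9 and 48.5 CPM in induced amiR-TOR roots, against 80.0, 66.9 and 71.8 CPM in Col-0 roots (log2 -0.67 ± 0.15, adjusted p = 0.0015). NBR1, an autophagy receptor, had 316, 287 and 298 CPM in induced amiR-TOR roots, against 339, 361 and 286 CPM in Col-0 roots (adjusted p = 0.424). ATG8B was low in each induced library while NBR1 overlapped. Without estradiol 12 members were lower, where 11.4% of all genes were, and none higher, with a median of -0.34. No member had a called interaction, against 2.62% of all genes. The induced falls numbered 1 without replicate 2 of Col-0, 2 without replicate 2 of amiR-TOR and 8 without replicate 3 of Col-0, and the 1 rise was lost without replicate 1 or 3 of either genotype.

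Several heat shock genes differed between genotypes more with estradiol than without it. Of 22 tested members, 8 rose and 2 fell (1 without replicate 1 or 2 of Col-0 or replicate 2 or 3 of amiR-TOR), where 17.56% and 15.3% of all genes did, and 6 had a called interaction with estradiol, all positive, against 1.24% of all genes. HSFA2, the heat-inducible heat shock factor, had 21.2, 16.9 and 19.9 CPM in induced amiR-TOR roots, against 2.02, 1.29 and 1.92 CPM in Col-0 roots. Its log2 fold change was 3.46 ± 0.20 (adjusted p = 9.77e-11) with estradiol and 0.48 ± 0.24 (adjusted p = 0.165) without it, and the interaction was 2.98 ± 0.32 (adjusted p = 1.9e-05).

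Chaperones downstream of heat shock factors followed. HSP90.1, the inducible cytosolic HSP90, had 283, 448 and 261 CPM in induced amiR-TOR roots, against 28.3, 28.6 and 34.6 CPM in Col-0 roots, with an interaction of 3.49 ± 0.37 (adjusted p = 3.35e-05). HSP101, a disaggregase, had 79.9, 71.3 and 72.6 CPM in induced amiR-TOR roots, against 16.2, 13.5 and 14.4 CPM in Col-0 roots, with an interaction of 1.85 ± 0.28 (adjusted p = 0.00103). All induced libraries of both genes lay above all Col-0 libraries. HSP70-4, a cytosolic HSP70, had 518, 565 and 500.1 CPM in induced amiR-TOR roots, against 125, 116 and 175 CPM in Col-0 roots, with an interaction of 1.98 ± 0.26 (adjusted p = 0.00021). MBF1C, a coactivator of heat responses, rose by 1.15 ± 0.21 with an interaction of 1.42 ± 0.29 (adjusted p = 0.0111).

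The small heat shock genes HSP17.6A and HSP17.4 rose both with and without the inducer. HSP17.6A rose by 4.05 ± 0.72 with estradiol and by 2.49 ± 0.64 without it (adjusted p = 0.000231 and 0.00897), and HSP17.4 by 2.37 ± 0.37 and 1.56 ± 0.35 (adjusted p = 4.69e-05 and 0.00335). Neither interaction passed the test (adjusted p = 0.453 for HSP17.6A and 0.447 for HSP17.4). Both are of low level, with at most 5.63 CPM in any of the 6 libraries. Among the other tested small heat shock genes, log2 values with estradiol were 1.87 for HSP17.6II, 1.70 for HSP17.6C and -0.02 for HSP18.2.

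The region before HSFA2 is shown because this factor had the lowest adjusted p in the list. It covers chr2:11135374-11135623 on the plus strand of TAIR10.1, the 250 bases before the annotated start, with capitals at matches to the heat shock element, written GAANNTTC or TTCNNGAA and searched on both strands.
HSFA2 upstream: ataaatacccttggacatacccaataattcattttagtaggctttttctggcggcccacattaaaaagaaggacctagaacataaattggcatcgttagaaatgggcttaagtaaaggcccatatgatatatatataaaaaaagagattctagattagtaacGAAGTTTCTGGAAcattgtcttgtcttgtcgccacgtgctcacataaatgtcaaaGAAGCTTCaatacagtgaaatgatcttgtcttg
It holds 3 matches, 2 of them overlapping. Of the 25 list members, 9 hold a match in this window, against 16.1% of 27443 protein-coding genes. HSP17.4 and HSP17.6A are among these 9, while HSP90.1, HSP101, HSP70-4 and MBF1C hold none. Matches also lie before HSFA1E, HSFA7A, DREB2A and BAG6, whose log2 values with estradiol were negative. A match is a description of letters, and annotated starts may lie away from true starts.

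**Figure D3:**
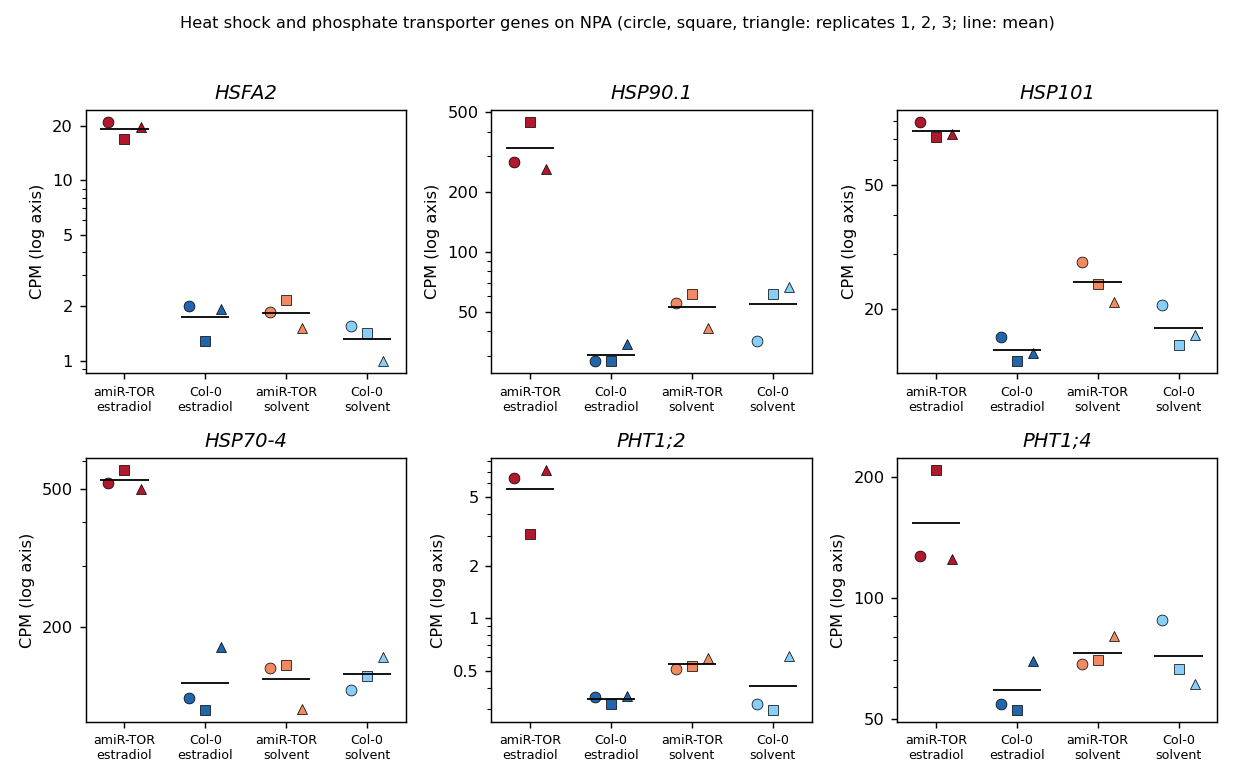
CPM (log axis) of 4 heat shock genes and 2 phosphate transporters in the 3 libraries of each group on NPA, with the group mean as a line. For all 6 genes the induced amiR-TOR libraries stand above the other 9, for example at 261 to 448 CPM of HSP90.1 against 28.3 to 34.6 CPM in Col-0 with estradiol.

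A pair of phosphate transporters also differed more with estradiol than without it. PHT1;2, a high-affinity transporter of the root surface, had 6.45, 3.04 and 7.14 CPM in induced amiR-TOR roots, against 0.353, 0.323 and 0.356 CPM in Col-0 roots, and its interaction with estradiol was 3.52 ± 0.66 (adjusted p = 0.00519). PHT1;4, another high-affinity transporter, had 128, 208 and 125 CPM in induced amiR-TOR roots, against 54.3, 52.6 and 69.8 CPM in Col-0 roots, with an interaction of 1.36 ± 0.28 (adjusted p = 0.0116). Both were high in every induced library. PHT1;2 and its neighbours PHT1;1 and PHT1;3 are close copies, so how reads were shared among them is uncertain.

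The rest of the phosphate list did not move as one. Of 21 tested, 6 rose and 3 fell, where 17.56% and 15.3% of all genes did, with a median of 0.07. PHT1;9 had 4.85, 2.4 and 5.97 CPM in induced amiR-TOR roots, against 1.06, 1.17 and 1.07 CPM in Col-0 roots (log2 1.99 ± 0.36, adjusted p = 0.000233), and RNS1, a ribonuclease made in phosphate starvation, had 4.12, 5.47 and 4.95 CPM in induced amiR-TOR roots, against 0.706, 0.646 and 1.45 CPM in Col-0 roots (log2 2.30 ± 0.40, adjusted p = 0.000148). PHO1, which loads phosphate into the xylem, fell by 0.97 ± 0.16 (adjusted p = 7.06e-05), and PHO2, the ubiquitin-conjugating enzyme that limits phosphate uptake, fell by 0.84 ± 0.19 (adjusted p = 0.00165). SPX1, a phosphate sensor that starvation induces, had 29.6, 23.65 and 44.2 CPM in induced amiR-TOR and 38.0, 36.8 and 25.8 CPM in Col-0 (adjusted p = 0.895).

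The 250 bases before PHT1;2, chr5:17415448-17415697 on the plus strand of TAIR10.1, are shown with capitals at the element bound by the phosphate regulator PHR1, written GNATATNC and searched on both strands.
PHT1;2 upstream: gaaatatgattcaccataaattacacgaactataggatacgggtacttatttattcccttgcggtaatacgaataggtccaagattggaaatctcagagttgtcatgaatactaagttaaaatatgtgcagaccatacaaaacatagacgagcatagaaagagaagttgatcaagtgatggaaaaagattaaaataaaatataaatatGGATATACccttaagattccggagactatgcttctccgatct
This window holds 1 match. Of 22 list members 4 hold one, against 5.46% of protein-coding genes. PHT1;4, PHT1;9 and RNS1, which were also higher, hold none.

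Camalexin and indole glucosinolate genes had the highest median of the 27 gene lists, and most were also high without the inducer. Of 20 genes of camalexin and indole glucosinolate synthesis, 14 rose, where 17.56% of all genes did, and 1 fell, with a median of 1.73. CYP71A12, which acts on indole-3-acetaldoxime, had 763, 214 and 834 CPM in induced amiR-TOR roots, against 1.67, 1.33 and 25.6 CPM in Col-0 roots. CYP82C2, which hydroxylates indole carbonyl nitriles, had 145, 43.6 and 156 CPM in induced amiR-TOR roots, against 0.101, 0.282 and 1.78 CPM in Col-0 roots. FOX1, an oxidase of the same branch, had 329, 207 and 323 CPM in induced amiR-TOR roots, against 2.27, 2.26 and 32.6 CPM in Col-0 roots. Each induced library exceeded each Col-0 library, and replicate 3 of Col-0 held most of the Col-0 counts. The log2 fold changes were 5.90 ± 1.32 (adjusted p = 0.00273), 6.99 ± 1.14 (adjusted p = 0.000217) and 4.46 ± 1.17 (adjusted p = 0.00785) in that order, and without replicate 3 of Col-0 they were 8.62 (adjusted p = 0.0012), 9.08 (adjusted p = 0.000823) and 6.94 (adjusted p = 0.00197).

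CYP71A13, the camalexin-specific relative, had 38.3, 4.63 and 32.1 CPM in induced roots and 3 counts in all in Col-0, a ratio of 658 (95% exact interval 225 to 3194, counting error only). All 3 of those counts were in replicate 3 of Col-0, and without it the gene was at least 338.5-fold higher, against a floor of 3 counts over the other two. CYP71A12 and CYP71A13 are near-identical, so reads may be shared between them. Replicate 2 of amiR-TOR, which had the least TOR, had the lowest level of CYP71A13, CYP71A12, CYP82C2 and FOX1 among the induced libraries. CYP71B15, the last enzyme of camalexin synthesis, had 94.2, 28.3 and 78.8 CPM in induced amiR-TOR roots, against 15.0, 15.7 and 15.6 CPM in Col-0 roots (log2 2.12 ± 0.58, adjusted p = 0.01), and its log2 value was 2.49 (adjusted p = 0.00487) without that library. WRKY33, the factor that switches camalexin genes on, had 152, 146 and 141 CPM in induced amiR-TOR roots, against 41.3, 50.2 and 58.7 CPM in Col-0 roots (log2 1.54 ± 0.30, adjusted p = 0.000643). MYB34, which drives constitutive indole glucosinolate synthesis, fell (log2 -0.94 ± 0.24, adjusted p = 0.0061; 0.0559 in a fit of the 6 libraries alone), while its relative MYB51 rose (log2 2.39 ± 0.40, adjusted p = 0.0002). Without estradiol 15 of the 20 were higher, where 10.7% of all genes were, with a median of 1.38. No member had a called interaction, against 2.62% of all genes.

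**Figure D4:**
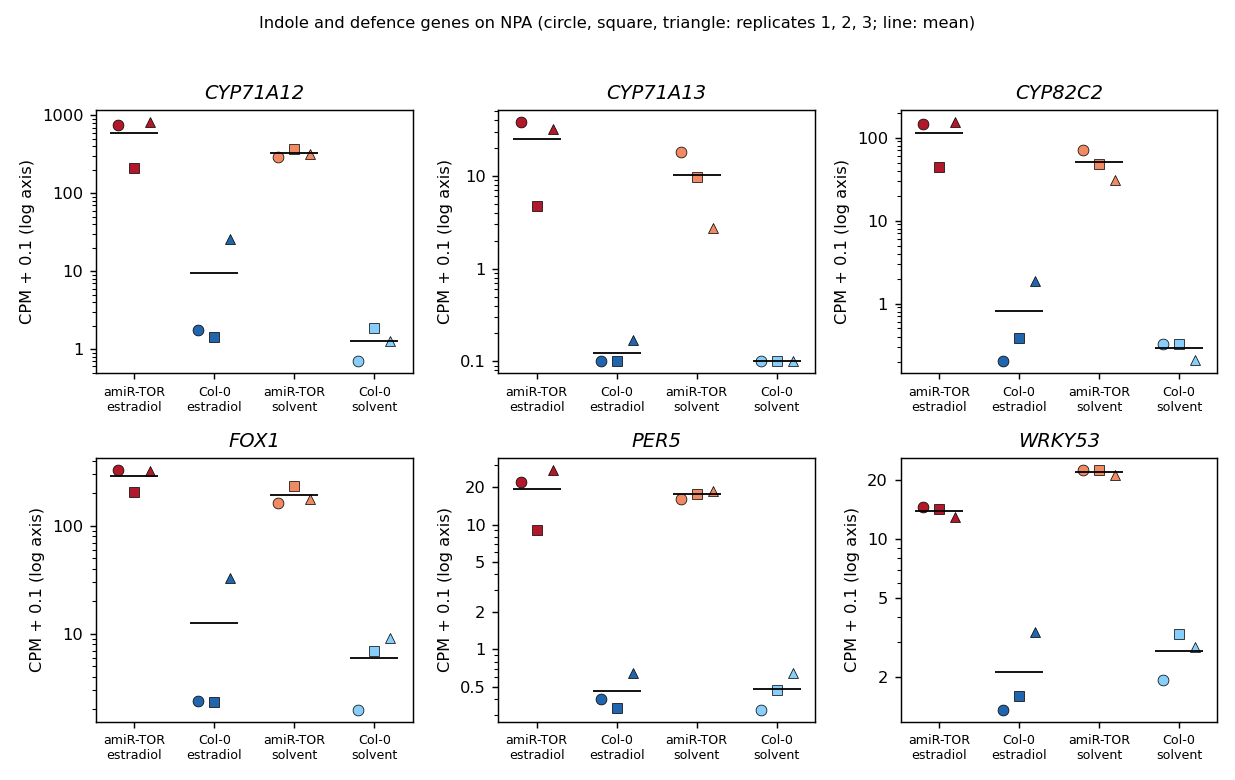
CPM + 0.1 (log axis) of 6 indole metabolism and defence genes in the 3 libraries of each group on NPA, with the group mean as a line. Both amiR-TOR groups lie above both Col-0 groups, and replicate 3 of Col-0 with estradiol (triangle) lies above replicates 1 and 2, at 25.6 CPM of CYP71A12 against 1.67 and 1.33 CPM.

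Part of the pattern-triggered defence list was higher. Of 19 tested, 8 rose, where 17.56% of all genes did, and 1 fell (0 without replicate 2 of either genotype). WRKY53, an early defence regulator, had 14.5, 14.1 and 12.8 CPM in induced amiR-TOR roots, against 1.26, 1.49 and 3.28 CPM in Col-0 roots (log2 2.68 ± 0.27, adjusted p = 3.92e-07). PER5, a peroxidase induced by bacterial flagellin, had 21.8, 8.97 and 27.2 CPM in induced amiR-TOR roots, against 0.303, 0.242 and 0.546 CPM in Col-0 roots (log2 5.59 ± 1.00, adjusted p = 0.000447), and MYB15, a regulator of lignin in defence, had 10.14, 15.3 and 7.30 CPM in induced amiR-TOR roots, against 0.807, 1.13 and 1.40 CPM in Col-0 roots (log2 3.24 ± 0.50, adjusted p = 7.13e-05). All 3 were also called higher without estradiol, at 3.06 ± 0.28, 5.51 ± 1.05 and 4.08 ± 0.56 in that order. WRKY18 had -0.13 ± 0.13 (adjusted p = 0.484). The salicylate markers PR1, PR2 and PR5 did not pass the filter on low counts.

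Jasmonate genes pointed both ways. Of 16 tested, 3 rose and 3 fell (37.5% called, against 32.8% of all genes), with 1 rise without replicate 1 of Col-0. ORA59, the ethylene and jasmonate response factor, had 0.291, 0.0324 and 0.314 CPM in induced amiR-TOR roots, against 2.22, 2.54 and 2.07 CPM in Col-0 roots (log2 -3.47 ± 0.52, adjusted p = 2.92e-05). VSP1, a vegetative storage protein, had 36.5, 24.3 and 34.1 CPM in induced amiR-TOR roots, against 129.7, 146 and 129 CPM in Col-0 roots, with an interaction with estradiol of -1.71 ± 0.23 (adjusted p = 0.000225). JAZ9, a repressor of the pathway, fell by 1.67 ± 0.23 with an interaction of -1.2 ± 0.31 (adjusted p = 0.0369). LOX4, a lipoxygenase of jasmonate synthesis, rose by 2.06 ± 0.56 (adjusted p = 0.0075), and MYC2, the main transcription factor, had -0.17 ± 0.12 (adjusted p = 0.289).

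Of 22 nitrogen genes, 7 were higher and 7 lower, where 17.56% and 15.3% of all genes were. The lower ones numbered 4 without replicate 1 or 2 of Col-0 or replicate 2 of amiR-TOR. NRT1.5, which loads nitrate into the xylem, fell (log2 -1.51 ± 0.23, adjusted p = 4.94e-05). AMT1;1, an ammonium transporter, had 283, 221 and 272 CPM in induced amiR-TOR roots, against 103, 137 and 94.9 CPM in Col-0 roots (log2 1.21 ± 0.19, adjusted p = 7.21e-05), and its call was lost with counts taken without regard to strand (adjusted p = 0.124). Of 16 sulphate starvation genes 2 rose and 4 fell (37.5% called), among them LSU3 (log2 -1.43 ± 0.32, adjusted p = 0.00185) and SDI1 (log2 -1.33 ± 0.37, adjusted p = 0.00794), both raised by low sulphur in the wild type.

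Iron genes moved in both directions. Of 24 tested, 8 rose and 3 fell (45.8% called, against 32.8% of all genes), with 5 rises without replicate 2 of Col-0. IMA1, a peptide that signals iron need, had 8.44, 5.38 and 9.89 CPM in induced amiR-TOR roots, against 1.31, 1.45 and 2.59 CPM in Col-0 roots (log2 2.09 ± 0.40, adjusted p = 0.000417), and F6H1, which makes iron-binding coumarins, had 409, 234 and 413 CPM in induced amiR-TOR roots, against 73.6, 69.3 and 131 CPM in Col-0 roots (log2 1.95 ± 0.31, adjusted p = 8.99e-05). FER1, the iron storage protein ferritin, had 63.2, 54.1 and 66.0 CPM in induced amiR-TOR roots, against 168, 166 and 99.4 CPM in Col-0 roots (log2 -1.24 ± 0.24, adjusted p = 0.000498). IRT1, the main iron importer of the root, had 150.4, 121 and 110.4 CPM in induced amiR-TOR roots, against 146, 146 and 112 CPM in Col-0 roots (adjusted p = 0.844). So 2 genes raised in iron need were high and ferritin low, while IRT1 overlapped between genotypes. IMA1 and F6H1 were also called without estradiol (1.86 ± 0.42 and 1.89 ± 0.31).

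Auxin carriers changed in both directions. PIN7, an auxin efflux carrier, had 71.9, 67.9 and 72.9 CPM in induced amiR-TOR roots, against 34.9, 33.4 and 39.2 CPM in Col-0 roots (log2 0.98 ± 0.10, adjusted p = 1.16e-07). LAX1, an influx carrier, had 19.99, 16.6 and 17.9 CPM in induced amiR-TOR roots, against 42.6, 35.5 and 41.9 CPM in Col-0 roots (log2 -1.14 ± 0.11, adjusted p = 7.23e-08). Both separated the genotypes completely. LAX1 was called lower without estradiol as well (-0.62 ± 0.11), and PIN7 had an interaction of 0.54 ± 0.14 (adjusted p = 0.0309). Of 13 auxin transport genes, 5 rose and 2 fell, where 17.56% and 15.3% of all genes did. The rises numbered 3 without replicate 2 of either genotype, and the falls 1 without replicate 3 of Col-0 or any 1 amiR-TOR library.

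Of 28 genes of auxin response and lateral root initiation, 5 rose and 3 fell (28.6% called, against 32.8% of all genes), with 2 to 5 rises and 3 to 5 falls under the other settings of the fit. LBD16 and GATA23, early regulators of lateral root founder cells, had 0.02 ± 0.17 (adjusted p = 0.95) and 0.11 ± 0.35 (adjusted p = 0.833) on the log2 scale. IAA19, an auxin-induced repressor, had 7.96, 5.44 and 8.95 CPM in induced amiR-TOR roots, against 4.59, 4.12 and 3.90 CPM in Col-0 roots (log2 0.83 ± 0.15, adjusted p = 0.000205), and IAA3 fell (log2 -1.24 ± 0.30, adjusted p = 0.00387). GH3.3, an auxin-conjugating enzyme, had 72.9, 10.9 and 52.0 CPM in induced amiR-TOR roots, against 12.4, 9.72 and 11.5 CPM in Col-0 roots (log2 2.01 ± 0.40, adjusted p = 0.000935); replicate 2 of amiR-TOR lay within the Col-0 range, and without it the value was 2.48 (adjusted p = 1.22e-08). PUCHI, a factor of primordium shape, had 0.922, 0.810 and 0.589 CPM in induced amiR-TOR roots, against 0.101, 0.242 and 0.523 CPM in Col-0 roots with an interaction of 2.62 ± 0.56 (adjusted p = 0.0122). Its induced value of 1.17 was 2.02 (adjusted p = 0.000603) without replicate 3 of Col-0. In a fit of the 6 libraries alone the calls of GH3.3 (adjusted p = 0.0824), PUCHI (0.0879) and LBD18 (0.106) with estradiol were lost. LBD18 had the opposite interaction (log2 -1.85 ± 0.36, adjusted p = 0.00637), with a difference of 1.22 ± 0.28 without estradiol and -0.64 ± 0.23 with it (adjusted p = 0.00348 and 0.0345). The call with estradiol was lost without replicate 1 or 3 of Col-0 or replicate 2 or 3 of amiR-TOR, with adjusted p between 0.0972 and 0.131.

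More cytokinin response genes fell than rose. Of 22 tested, 3 rose and 8 fell, where 17.56% and 15.3% of all genes did, with a median of -0.45. ARR5, a response regulator that cytokinin induces, had 61.3, 46.6 and 61.9 CPM in induced amiR-TOR roots, against 97.0, 112 and 116 CPM in Col-0 roots. ARR9, of the same family, had 40.3, 36.8 and 44.8 CPM in induced amiR-TOR roots, against 73.3, 69.6 and 76.5 CPM in Col-0 roots. Neither overlapped between genotypes, and their log2 values were -0.94 ± 0.13 (adjusted p = 1.35e-05) and -0.85 ± 0.09 (adjusted p = 3.51e-07). CYP735A1, the enzyme that makes trans-zeatin, was among the 10 largest falls of all genes, with 1.26, 0.745 and 1.14 CPM in induced amiR-TOR roots, against 6.71, 6.90 and 10.7 CPM in Col-0 roots (log2 -2.98 ± 0.38, adjusted p = 4.02e-06) and an interaction of -2.35 ± 0.50 (adjusted p = 0.0121). CKX4, which degrades cytokinin, had 8.44, 1.13 and 7.38 CPM in induced amiR-TOR roots, against 18.16, 19.8 and 26.1 CPM in Col-0 roots (log2 -1.95 ± 0.41, adjusted p = 0.00129), and its call was lost in a fit of the 6 libraries alone (adjusted p = 0.0635). ARR15 went the other way (log2 2.07 ± 0.53, adjusted p = 0.00436; 3.05 (adjusted p = 0.00127) without replicate 3 of Col-0).

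Ethylene synthesis genes were partly raised. Of 19 genes of ethylene synthesis and signalling, 5 rose and 2 fell (36.8% called, against 32.8% of all genes), with 1 fall without any 1 Col-0 library or replicate 3 of amiR-TOR. ACS7, which makes the ethylene precursor, had 11.0, 22.2 and 8.05 CPM in induced amiR-TOR roots, against 1.26, 1.98 and 2.71 CPM in Col-0 roots (log2 2.75 ± 0.47, adjusted p = 0.000219). ACO4, which converts the precursor, had 81.3, 89.5 and 84.8 CPM in induced amiR-TOR roots, against 46.1, 56.4 and 49.9 CPM in Col-0 roots with an interaction of 0.71 ± 0.19 (adjusted p = 0.0398), while ACO3 fell (log2 -1.10 ± 0.27, adjusted p = 0.00436). Among 19 abscisic acid and osmotic stress genes 3 rose and 5 fell (42.1% called; 3 falls without replicate 1 of Col-0 or replicate 2 of amiR-TOR), with RD22 higher (log2 2.12 ± 0.43, adjusted p = 0.000734) and LTI30 lower (log2 -0.91 ± 0.21, adjusted p = 0.00212; 0.0548 in a fit of the 6 libraries alone). Among 15 hypoxia genes 1 rose (2 without replicate 2 of amiR-TOR) and 4 fell (33.3% called), with LBD41 at -1.13 ± 0.24 (adjusted p = 0.00143) and PDC2, a pyruvate decarboxylase, at -0.72 ± 0.14 (adjusted p = 0.000332).

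Many root hair and expansin genes were higher. Of 23 tested, 14 rose, where 17.56% of all genes did, and none fell, with a median of 0.89. RHD6, the factor that starts root hair formation, had 14.3, 14.6 and 11.5 CPM in induced amiR-TOR roots, against 8.22, 7.95 and 8.91 CPM in Col-0 roots (log2 0.68 ± 0.16, adjusted p = 0.0023). RHS12, a root hair pectin methylesterase, averaged 20.3 ± 3.16 CPM in induced amiR-TOR roots and 8.32 ± 2.70 CPM in Col-0 roots (SD, n = 3 each; log2 1.29 ± 0.27, adjusted p = 0.00115), and RHS19, a peroxidase, had 74.6, 54.9 and 90.7 CPM in induced amiR-TOR roots, against 25.3, 41.8 and 22.4 CPM in Col-0 roots (log2 1.3 ± 0.33, adjusted p = 0.00589). Replicate 2 of Col-0 was the highest Col-0 library for RHS12 and RHS19 but stayed below every induced library. Rises numbered 7 without replicate 1 of Col-0, 8 without replicate 3 of either genotype and 15 without replicate 2 of amiR-TOR. Without estradiol 6 of these genes were called higher, where 10.7% of all genes were, with a median of 0.73. No interaction was called, against 2.62% of all genes.

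Cell wall synthesis genes were called about as often as other genes. Of 25, 4 rose and 3 fell (28%, against 32.8% of all genes), and the falls numbered 1 without any 1 Col-0 library, 0 without replicate 2 of amiR-TOR and up to 6 under other settings of the fit. The rises were led by XTH14 (log2 1.54 ± 0.30, adjusted p = 0.0006) and XTH9 (log2 1.2 ± 0.20, adjusted p = 0.000127), enzymes that remodel xyloglucan. Of 27 Casparian strip and suberin genes none rose (3 without replicate 2 of Col-0) and 1 fell (3.7% called), MYB92, a regulator of suberin, with 19.3, 17.8 and 20.2 CPM in induced amiR-TOR roots, against 34.8, 37.3 and 37.1 CPM in Col-0 roots (log2 -0.93 ± 0.10, adjusted p = 6.78e-07). CASP1 and MYB36, which build and switch on the Casparian strip, had 0.27 ± 0.16 (adjusted p = 0.203) and 0.11 ± 0.13 (adjusted p = 0.543). Of 22 aquaporins 3 rose and 7 fell, where 17.56% and 15.3% of all genes did, with 1 rise without replicate 3 of Col-0 and 4 falls without replicate 2 of Col-0. TIP2;3, a vacuolar aquaporin, had 35.6, 31.3 and 38.2 CPM in induced amiR-TOR roots, against 117, 164 and 52.0 CPM in Col-0 roots (log2 -1.66 ± 0.31, adjusted p = 0.000538), with replicate 3 of Col-0 the lowest of the Col-0 libraries, and NIP1;1 rose (log2 1.26 ± 0.21, adjusted p = 0.000105).

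Markers of cell types were checked in the same libraries. The 2 matched pollen markers had no count in any of the 6 libraries, and all 5 root meristem, 4 root cap, 4 endodermis, 7 xylem, 6 phloem and 6 epidermal markers were detected. In bulk samples, fewer cells of a type and less RNA per cell cannot be told apart. Of all tested genes 17.56% were called higher and 15.3% lower. Shares near these were called among meristem markers (20% higher) and xylem markers (14.3% lower). Epidermal markers, which include the root hair expansins EXPA7 and EXPA18, summed to 97.4 to 115.7 CPM in induced amiR-TOR and 60.3 to 81.6 CPM in Col-0, and 3 of 6 rose, of which only RHD6 did so without replicate 1 or 3 of Col-0 or replicate 3 of amiR-TOR. Meristem markers summed to 69.5 to 92.9 CPM in induced amiR-TOR and 56.3 to 61.5 CPM in Col-0, with 1 of 5, KNOLLE, called higher and not so without replicate 2 of amiR-TOR (adjusted p = 0.105) or replicate 2 (0.0582) or 3 (0.0571) of Col-0. The part of these markers in the root hair and cell cycle results was not tested. Phloem markers summed to 142.6 to 155.4 CPM in induced amiR-TOR and 186.7 to 216.8 CPM in Col-0, with 4 of 6 lower, and xylem markers to 278 to 286 CPM in induced amiR-TOR and 323 to 373 CPM in Col-0, with 1 of 7 lower. SEOR1, a sieve element protein, and XCP2, a xylem protease, each had a called interaction with estradiol (-0.85 ± 0.21 and -0.88 ± 0.21). The 4 phloem calls fell to 1 without replicate 1 of Col-0 or replicate 3 of amiR-TOR and to 2 without replicate 2 of Col-0 or replicate 1 or 2 of amiR-TOR. Root cap and endodermis markers summed to 30.8 to 33.0 CPM and 145.7 to 181 CPM in induced amiR-TOR, against 27.6 to 30.2 CPM and 110.7 to 144.3 CPM in Col-0.

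Markers of green shoot tissue were lower in amiR-TOR roots both with and without estradiol. Their 13 genes summed to 92.1 to 165 CPM in induced amiR-TOR and 180 to 312 CPM in Col-0, and 4 fell while none rose (30.8% lower, against 15.3% of all genes), with 7 falls without replicate 1 of amiR-TOR. RBCS1A, a small subunit of Rubisco, had 12.7, 7.09 and 3.61 CPM in induced amiR-TOR roots, against 65.4, 56.9 and 31.7 CPM in Col-0 roots (log2 -2.73 ± 0.35, adjusted p = 1.2e-05), with an interaction of -2.73 ± 0.46 (adjusted p = 0.0037). RCA, Rubisco activase, had 25.6, 19.8 and 16.6 CPM in induced amiR-TOR roots, against 54.9, 52.9 and 40.3 CPM in Col-0 roots (log2 -1.26 ± 0.25, adjusted p = 0.000685). In the uninduced groups 5 of the 13 were lower, where 11.4% of all genes were, and none was higher. The median was -0.81 there and -0.80 with estradiol, and RBCS1A was the 1 member with a called interaction. The part of green tissue in other results was not tested. RBCS genes have close copies, so their counts are uncertain.

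The largest falls of all were of moderate size beside the largest rises. The 10 genes with the largest falls had log2 values between -3.93 and -2.80 (adjusted p up to 0.000144). AT1G80165, annotated as a cotton fiber protein, had 0.922, 0.680 and 0.667 CPM in induced amiR-TOR roots, against 10.9, 13.6 and 9.95 CPM in Col-0 roots and an interaction with estradiol of -2.95 ± 0.46. PMI1, which moves plastids, had 2.96, 1.62 and 2.00 CPM in induced amiR-TOR roots, against 16.1, 15.1 and 14.9 CPM in Col-0 roots and an interaction of -1.85 ± 0.27. MES10, a methylesterase, had 0.534, 0.0972 and 0.196 CPM in induced amiR-TOR roots, against 3.03, 3.31 and 3.25 CPM in Col-0 roots. Lack of overlap between genotypes was a condition of being among these 10, and 50.3% of all tested genes met it. AT2G22122, the most abundant of the 10, had 24.3, 16.1 and 24.6 CPM in induced amiR-TOR roots, against 164, 172 and 167 CPM in Col-0 roots, and it was also lower without estradiol (-1.94 ± 0.18). The other members were ORA59, AT2G30540, AT4G00780, CYP735A1, AT2G26695 and AT3G22961. Without replicate 1 of amiR-TOR the value of MES10 was -4.43 and that of AT2G30540 -4.30, and without replicate 2 of amiR-TOR that of ORA59 was -2.88.

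The remaining members of the 10 largest rises were AT5G38910, a cupin protein with 95.9, 3.95 and 107 CPM in induced amiR-TOR roots, against 0.0505, 0 and 0.0950 CPM in Col-0 roots, and AT2G37810, a cysteine- and histidine-rich C1 domain protein with 3.25, 2.4 and 2.28 CPM in induced amiR-TOR and no count in Col-0, at least 74.7-fold higher against the floor and 38.5-fold without replicate 3 of Col-0. The neighbouring gene AT2G37805 also rose (log2 4.69 ± 0.73, adjusted p = 4.18e-05). Replicate 2 of amiR-TOR had by far the least AT5G38910 of the induced libraries. Without replicate 3 of Col-0 the log2 value of AT5G38910 was 11.23 (adjusted p = 0.00431).

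The genotype difference on NPA was then set against that on IAA, with estradiol in both and NPA recorded for both. On IAA 7921 of 21290 genes (37.2%) were called, 4150 higher and 3771 lower in induced amiR-TOR. The difference between the 2 differences was called at 2550 genes (12.0%), 1532 (7.20%) more positive on NPA and 1018 (4.78%) less so. The split moved to 1959 and 732 with RLE size factors, 2366 and 966 with DESeq2 and 1597 and 639 in a fit of the 4 groups alone. The groups on IAA and on NPA share no library. In the IAA groups, replicate 1 of amiR-TOR and replicates 2 and 3 of Col-0 had over 20% unmapped reads, and with a term for such libraries the split was 1569 and 1166.

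Medians of the ribosome and replication lists had opposite signs on the 2 media. All 21 nucleolar factors were lower in induced amiR-TOR on IAA (median -0.59), and for 19 the difference from NPA was called. FIB2 had a log2 difference of 0.56 ± 0.15 on NPA and -0.71 ± 0.15 on IAA, and the difference between these was 1.26 ± 0.22 (adjusted p = 0.000682). Genes of the ribosomal protein list had a median of -0.29 on IAA. On that medium 7 of 93 were higher and 24 lower, where 4150 and 3771 of all 21290 genes were. Of the 93, 37 were called more positive on NPA and 3 less so, against 7.20% and 4.78% of all genes. Of the 27 replication genes 15, and of the 27 cyclins and kinases 8, were called more positive on NPA, against 7.20% of all genes.

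Heat shock genes differed between the media as well. On IAA 1 was higher and 10 were lower in induced amiR-TOR, where 4150 and 3771 of all 21290 genes were. Of the 22, 11 were called more positive on NPA, against 7.20% of all genes. HSFA2 had 3.46 ± 0.20 on NPA and 0.04 ± 0.17 on IAA (difference 3.42 ± 0.26, adjusted p = 2.79e-08), and HSP70-4 had 1.93 ± 0.19 and -1.17 ± 0.18 (difference 3.1 ± 0.26, adjusted p = 1.7e-07). Root hair genes had positive medians on both media, with 18 of 23 higher on IAA and a median of 1.40 there. Of these 23 genes, 5 were called less positive on NPA, against 4.78% of all genes. TOR was lower on both media, at -1.39 ± 0.15 on NPA and -1.40 ± 0.15 on IAA on the log2 scale.

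**Figure D5:**
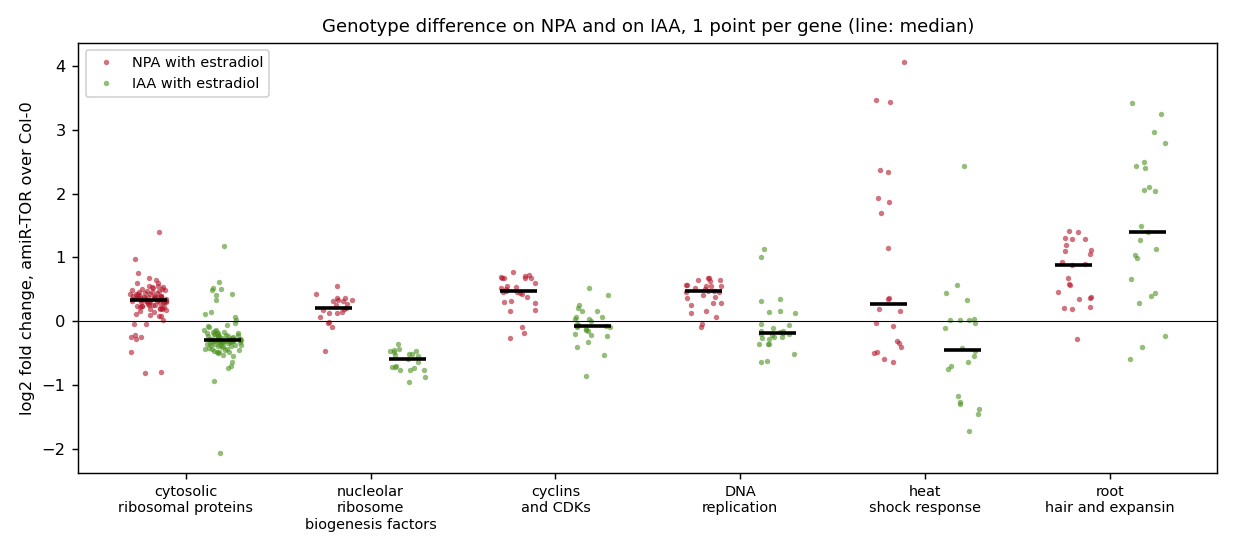
Log2 fold change of amiR-TOR over Col-0 for each tested gene of 6 lists, on NPA (red) and on IAA (green), both with estradiol, with the list median as a line. Medians of the ribosomal, nucleolar, cyclin, replication and heat shock lists are positive on NPA and negative on IAA, at 0.21 and -0.59 for nucleolar factors, while root hair and expansin genes are positive on both.

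The 5 genes with the largest difference between the media were all far higher in induced amiR-TOR on NPA. They were AT2G29220, a lectin-type receptor kinase, AT5G38910, AT3G60415, a phosphoglycerate mutase family protein, AT4G14450 and AT3G03670, a peroxidase. AT3G03670 had 28.7, 15.4 and 21.1 CPM in induced amiR-TOR roots, against 0.0505, 0.161 and 0.214 CPM in Col-0 roots on NPA, where its log2 difference was 7.04 ± 1.09, and 37.2 ± 16.7 CPM in induced amiR-TOR and 15.7 ± 12.9 CPM in Col-0 on IAA, where it was 1.26 ± 0.66. The difference was 5.77 ± 1.34 (adjusted p = 0.01). The call for AT5G38910 was lost when any 1 of 9 of the 12 libraries was left out, and for AT2G29220 any 1 of 3, with adjusted p up to 0.119 and 0.0555. In a fit of the 4 groups alone the calls of AT5G38910 (adjusted p = 0.165), AT2G29220 (0.0998), AT3G03670 (0.0541) and AT3G60415 (0.0521) were lost. That of AT5G38910 was also lost with the term for unmapped reads (0.106), the replicate block (0.0542), no filter on low counts (0.0653) and counts without regard to strand (0.0507), and its difference ran from 6.92 to 9.16 with 1 library left out. The difference was 7.43 for AT2G29220 without replicate 3 of induced amiR-TOR on NPA, 5.99 for AT3G60415 without replicate 3 of Col-0 on IAA and 7.82 for AT4G14450 without replicate 3 of Col-0 on NPA.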

How the data were processed

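RNA of Arabidopsis roots was sequenced in 24 libraries, 3 in each of 8 groups, of which 6 form the main comparison. The deposited files hold counts of reads per gene, raw and not normalized, in the layout of STAR's gene counts. Per the submitters' processing notes, STAR 2.5.2b, DESeq2 and the TAIR10 build were used; other settings are not given in the sources used here. Column 4 was used, which held 95.6% to 95.8% of the reads assigned on either strand in the 6 libraries. The 4 summary lines of each file stayed out of library sizes and tests, and those for multimapping, ambiguous and unassigned reads made up 4.00% to 5.42% of reads.

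From there, 1 edgeR 4.0.16 quasi-likelihood model (R 4.3.3, TMM, filterByExpr, robust) was fitted to all 24 libraries, with p-values adjusted by Benjamini-Hochberg over 21290 genes and a threshold of 0.05. Errors of log2 values are standard errors derived from the F statistic. The script was tested on simulated data with known changes. DESeq2 1.42.0 and other settings were alternatives. Tables and figures used Python 3.11.15 with pandas 2.3.3, numpy 2.4.6, scipy 1.17.1 and matplotlib 3.10.9. Intervals and floors of 3 counts cover counting error only. Sequences are from the RefSeq TAIR10.1 assembly and are credited to it.

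Named genes are the 10 largest called rises and falls averaging at least 1 CPM without overlap between genotypes, the 5 largest of each interaction, and up to 4 called members of each list with the largest change, plus members that define a list. Members and lists were chosen with earlier results of these data known, and some members, among them HSP101, HSP70-4, MBF1C, PHT1;4, PHO1, PHO2, CYP71B15, WRKY33, MYB51, MYB34, LBD18, JAZ9, ARR9, FER1, MYB33 and CDKB2;1, were added after their values were seen. A gene that this rule names is not reported here, though counts over named genes and lists include it. No label or file name gives a batch.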

Additional observations from a re-analysis of the deposited data

Results flagged for a closer look

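Each result below passed the test of a difference between 2 genotype differences, either with against without estradiol on NPA or on NPA against IAA with estradiol. Values are log2 differences, first minus second.

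With estradiol, the genotype difference was more positive at MIR319A by 11.93, AT5G05840 by 8.50, AT5G40620 by 7.55, AT1G09421 by 6.57 and AT5G38240 by 5.44. Among heat shock genes it was more positive at HSP90.1 by 3.49, HSFA2 by 2.98, HSP70-4 by 1.98, HSP101 by 1.85 and MBF1C by 1.42. The phosphate transporters PHT1;2 and PHT1;4 had 3.52 and 1.36. PUCHI had 2.62, ACO4 0.71 and PIN7 0.54.

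The difference was more negative with estradiol at TOR (-1.21) and at 7 of the 10 largest falls, against 1.38% of all genes. Those 10 were picked by the induced difference, which is part of the interaction, so their selection favours such a count. MES10 had -3.25, AT2G30540 -3.13, AT1G80165 -2.95, CYP735A1 -2.35, PMI1 -1.85, AT3G22961 -1.44 and AT2G22122 -1.02. RBCS1A had -2.73, LBD18 -1.85, VSP1 -1.71, JAZ9 -1.20, XCP2 -0.88, SEOR1 -0.85 and ARR9 -0.62.

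On NPA the genotype difference was more positive than on IAA at AT2G29220 by 8.03, AT5G38910 by 7.60, AT3G60415 by 6.71, AT4G14450 by 6.22 and AT3G03670 by 5.77. In Col-0 on NPA with estradiol AT2G29220 had no count and AT4G14450 had 1, so the size of their values is uncertain.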

How the results depend on the processing

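The induced comparison called 6567 to 7660 genes under the 7 other settings of the fit and 5289 to 6256 when 1 of its libraries was left out, against 6986. With a size of at least 1 on the log2 scale it called 1928. Without estradiol the count was 4192 to 5475, and 2881 to 4726 with a library left out, lowest without replicate 3 of uninduced Col-0. The interaction with estradiol had 461 to 1069 calls, the highest with DESeq2, and 295 to 632 with a library left out, lowest without replicate 1 of Col-0 with estradiol. The interaction with auxin had 2195 to 3332, and 1503 to 3044 with a library left out, lowest when the induced comparison's Col-0 replicate 2 was dropped. Same-numbered libraries of the 2 genotypes had deviations correlated at -0.176 to 0.0818, and 2 of 6 libraries correlated best with their own number. Pairing by number was thus not seen, though so few libraries cannot decide it. A replicate block gave 6852 calls with estradiol, 4485 without it, 461 for the interaction with estradiol and 2366 for that with auxin. Of 162 called values of named genes, 111 kept their call and direction under every setting run, including each library left out. The sign turned only in uncalled values near 0. In a fit of the groups compared alone S6K1 had -0.0122 and LBD16 -0.0131. With 1 library left out, log2 values ranged from -0.0661 to 0.0837 for S6K1, -0.00865 to 0.0587 for KIN10, -0.11 to 0.24 for LBD16, -0.30 to 0.37 for GATA23, -0.00935 to 0.18 for MYB36, -0.33 to 0.14 for SPX1 and -0.25 to 0.00922 for IRT1. The cause was not tested. Counts without regard to strand gave no value for AT1G80165, SMR5 and MYC2, which were at 0 there. Depth limits genes near 1 CPM and those with no count in Col-0.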
